A study of Bos taurus with 6 samples.

Results

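The genes described here encode the machinery that copies DNA in S phase. They were chosen by name, as 52 listed replication genes whose scaled counts had a mean of at least 10 over all libraries. All 52 were found, each in 1 row, and all 52 met the minimum, out of 12070 named genes that did. The RNA came from bovine embryos at the late morula stage, on day 6 after in vitro fertilization. Embryos of the first group received siRNA targeting NOTCH1, those of the second received siRNA targeting RBPJ, and those of the control received nonspecific siRNA, so all 3 groups carry an siRNA. GFP and RFP messenger RNA was added to the samples of all groups before RNA extraction. The labels used here give no time of delivery and no strain. Each group had 2 libraries, and each library was a pool of 15 embryos, so values are averages over whole embryos and over all of their cells. NOTCH1 is a receptor of the NOTCH pathway and RBPJ is the DNA-binding protein through which that receptor acts on its target genes.

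Replication starts when the origin recognition complex marks origins and, with CDC6 and CDT1, loads the ring of MCM2 to MCM7 onto DNA. Kinases then recruit CDC45 and the GINS complex, which turns the ring into the moving helicase, and the polymerases copy the parted strands behind it. These roles were worked out mainly in yeast, frog egg extracts and human cells. Cleavage-stage embryos divide without growing in between, first on replication proteins and transcripts stored in the oocyte and later on transcripts of their own.

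The deposited values, called scaled counts here, are not corrected for gene length, so levels are compared between libraries for 1 gene and not between genes. The total per library ran from 10365695 to 10815554 scaled counts, and the approximate depth from 9620000 to 13656000 reads, the deepest being replicate 1 of the RBPJ knockdown. RBPJ had 121 and 94.5 in the RBPJ knockdown, against 447 and 391 in the control (log2 fold change -1.96 ± 0.18 SE, limma adjusted p = 0.00143). NOTCH1 was low, with 48.0 and 49.5 in the NOTCH1 knockdown against 69.6 and 140 in the control, and did not pass (0.499-fold the control, limma adjusted p = 0.634), which limits that group as a model. In the RBPJ knockdown NOTCH1 stood at 50.0 and 125. Of the embryo markers, 9 of 10 were matched and all 9 had a mean of at least 10, with POU5F1 between 10911 and 12942 and CDX2 between 624 and 976. Their summed level was 49063 and 42674 in the NOTCH1 knockdown, 44894 and 32896 in the RBPJ knockdown, and 39360 and 35932 in the control. Of these markers KRT8 (7578 to 16107) and KRT18 (5878 to 11454.5) spanned the widest ranges in scaled counts, while NANOG had 125 to 200. The 10 oocyte markers summed to 164 and 359 in the NOTCH1 knockdown, 231 and 378 in the RBPJ knockdown, and 418 and 654 in the control. The 11 matched of 13 cumulus, granulosa and fibroblast markers summed to 1586 and 1619 in the NOTCH1 knockdown, 1765 and 1675 in the RBPJ knockdown, and 1631 and 1750 in control embryos. PDGFRA made up the largest part of these sums, with 830 to 995. COL1A1 had 286 to 346, CYP19A1 114 to 172, COL1A2 111 to 166, STAR 57.2 to 92.7 and DCN 26.6 to 79.0. The others were low. HAS2 had 3.07 to 10.9, TNFAIP6 0 to 15.0, COL3A1 1.09 to 8.45, VIM 2.04 to 40.2 and LUM 8.17 to 22.6. The 7 blood and immune markers summed to 1146 and 1492 in the NOTCH1 knockdown, 1167 and 1481 in the RBPJ knockdown, and 1099 and 1419 in control embryos, mostly from HBA. Of the others, LYZ had 44.7 to 88.8 and CD14 16.3 to 30.8, while PTPRC had 0 to 11.3 and CD3E was listed at 0 in 3 libraries. HBB was also low, with 1.06 to 8.63, as was CD79A, with 0 to 1.24. The part of the oocyte, embryo and other marker levels in the values below was not tested.

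Transcripts of the replication machinery differed little between the 3 groups, and no single gene passed the test. Together the 52 genes made up 0.621% ± 0.012 of the scaled counts in the NOTCH1 knockdown, 0.588% ± 0.001 in the RBPJ knockdown and 0.601% ± 0.028 in the control (SD, n = 2 libraries each). Tested within the fit over all 12070 genes, 0 of 52 passed an adjusted p of 0.05 in each of the 3 comparisons (limma). The share of all genes that passed was 0% for the NOTCH1 knockdown over the control, and 0.00829% for the RBPJ knockdown over the control and for the NOTCH1 over the RBPJ knockdown. At an unadjusted p below 0.05 limma gave 2 members in the NOTCH1 knockdown, LIG1 and MCM2, against 7.29% of all genes. It gave 3 members in the RBPJ knockdown, CDC6, MCM10 and POLE2, against 4.34% of all genes, and 2 between the knockdowns, LIG1 and CDC6, against 3.64%. Without replicate 2 of the RBPJ knockdown these counts were 1, 0 and 0, and without replicate 2 of the control 3, 8 and 2. These shares of 3.85%, 5.77% and 3.85% of the members are set beside all genes as a description. In pools of whole embryos, fewer cells in S phase and less of a transcript per cell cannot be told apart.

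**Figure D1:**
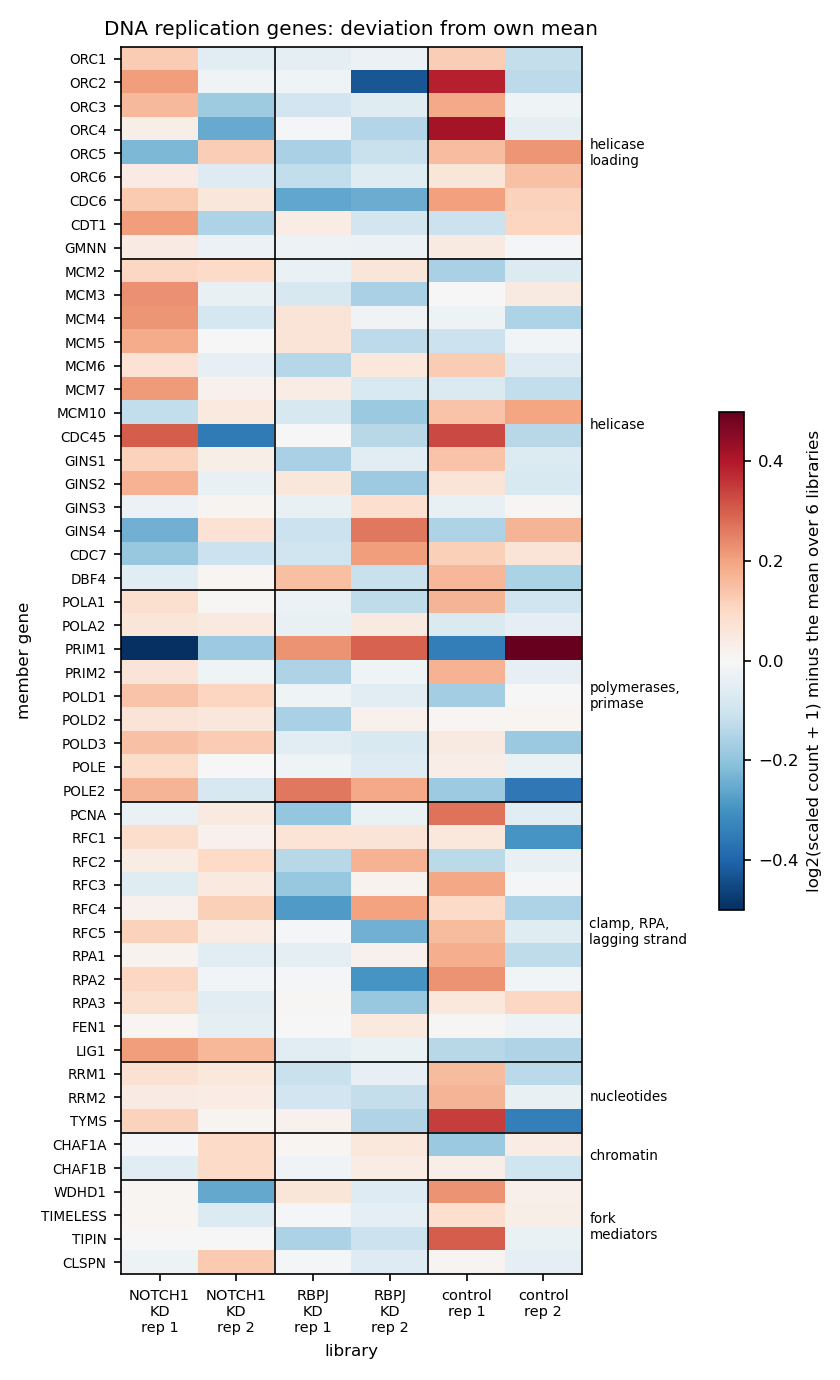
Deviation of each of the 52 replication genes from its own mean over the 6 libraries, in log2(scaled count + 1), with genes in rows ordered by role and libraries in columns. Most cells are pale, and PRIM1, the member with the lowest values, has the darkest ones. Replicate 1 of the control and of the NOTCH1 knockdown hold the highest value of 22 and 15 members. These are 42.3% and 28.8% of the members, beside 21.4% and 20.1% of all genes.

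Fold changes of the members were small and their intervals narrow beside those of all genes. Against the control the median absolute log2 fold change of the members was 0.09 in the NOTCH1 knockdown and 0.10 in the RBPJ knockdown, where all genes tested had 0.15 and 0.13. The 95% interval lay within a 2-fold change in either direction for 51 of 52 members in each comparison, and for 78.1% to 79.8% of all genes. PRIM1, the catalytic subunit of primase, was the exception. It had 8.17 and 10.8 in the NOTCH1 knockdown, 14.6 and 15.4 in the RBPJ knockdown, and 9.51 and 18.5 in the control, the lowest mean of the members and the only one near the minimum of 10. Of the 52 members, 50 had a mean of at least 100, as did 8451 of the 12070 genes. Fold changes and intervals were not compared with genes of matched level, so the part of expression level in this contrast was not tested.

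**Figure D2:**
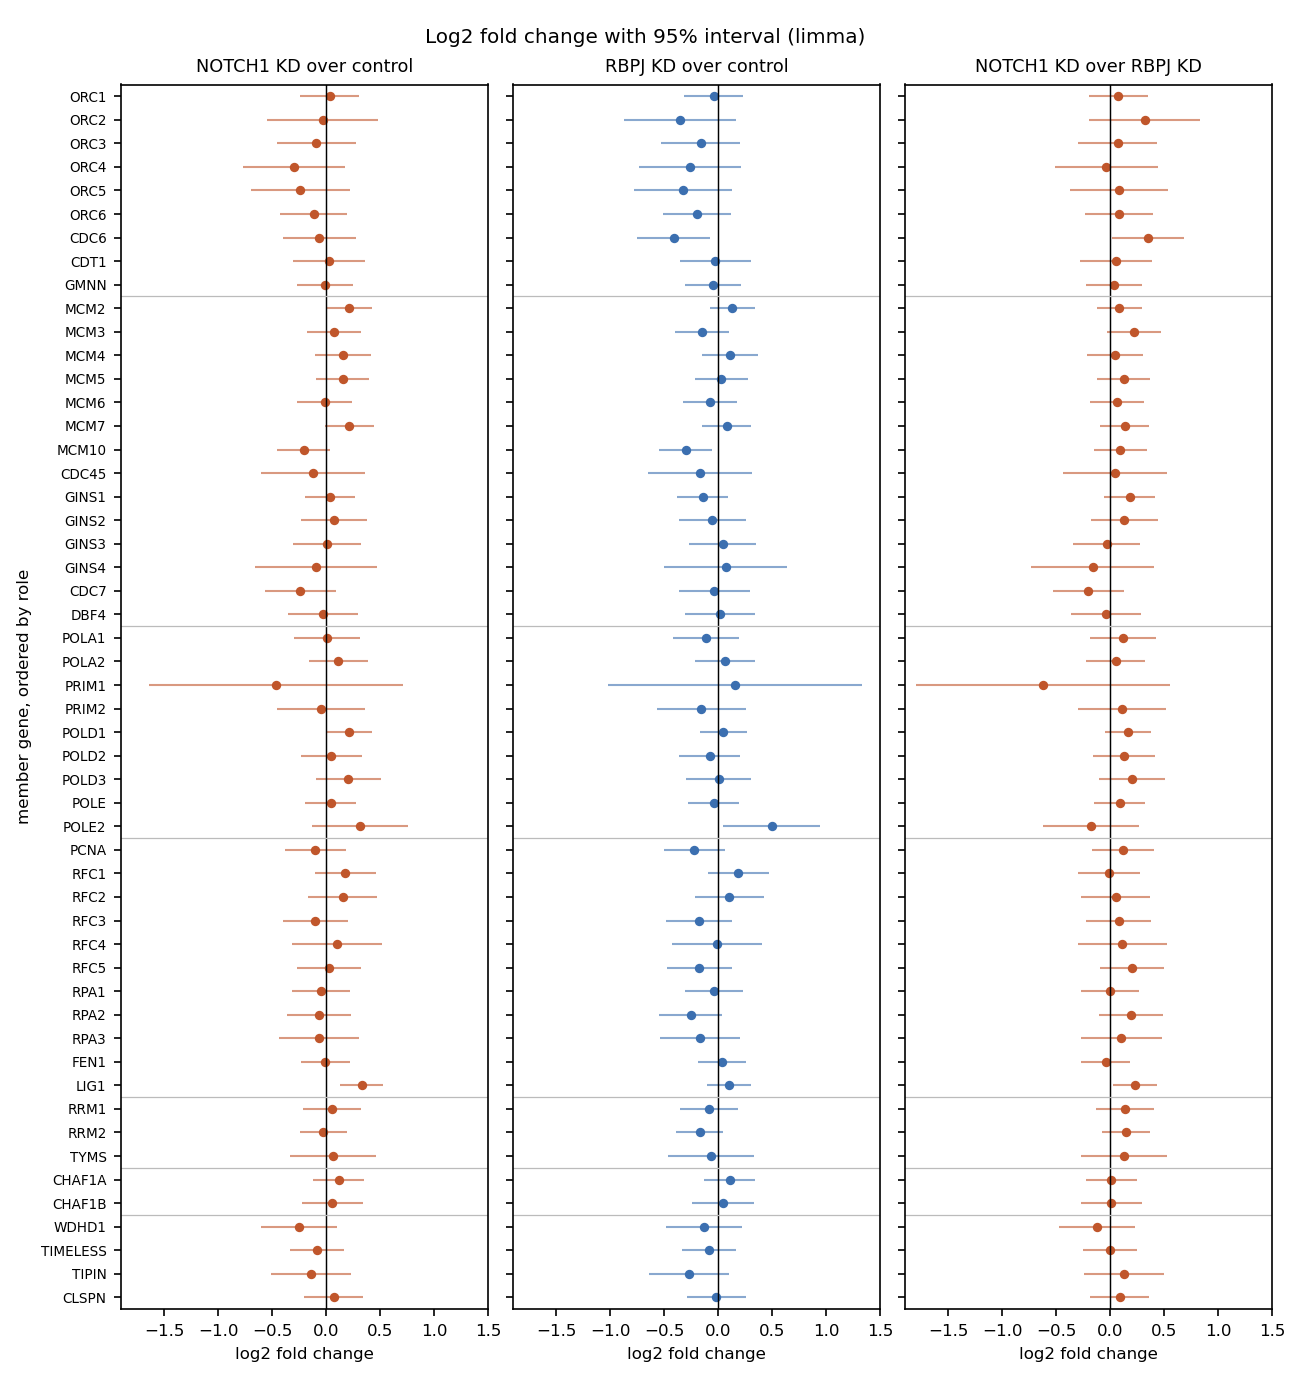
Log2 fold changes (points) with 95% intervals (lines) from limma for the 52 members, ordered by role, in the NOTCH1 knockdown over the control (left), the RBPJ knockdown over the control (middle) and the NOTCH1 over the RBPJ knockdown (right). Nearly all intervals include 0, and PRIM1 has the widest interval, from -1.64 to 0.71 in the left panel.

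The genes for helicase loading, including the inhibitor GMNN, had fold changes below 0 in the RBPJ knockdown, although none passed. In the RBPJ knockdown all 9 had a log2 fold change below 0, with a median of -0.20 and a range of -0.41 to -0.03, beside 50.3% below 0 among all genes. In the NOTCH1 knockdown 7 of 9 lay below 0, beside 48.9% of all genes, with a median of -0.06. That median was 0.02, with 4 of 9 below 0, without replicate 2 of the NOTCH1 knockdown, and -0.15, with 9 of 9 below 0, without its replicate 1. In the RBPJ knockdown the median was -0.09 without replicate 1 of the control and -0.27 without its replicate 2, with 8 of 9 below 0 in each case. CDC6 is an ATPase that takes part in loading the helicase ring onto DNA. It had 312 and 296 in the NOTCH1 knockdown and 238 and 239 in the RBPJ knockdown, against 328 and 308 in control embryos. Both RBPJ knockdown libraries lay below all 4 others and nearly coincided. The log2 fold change of CDC6 in the RBPJ knockdown was -0.41 ± 0.15 SE against the control (95% interval -0.75 to -0.08, limma adjusted p = 0.983). It kept between -0.46 and -0.37 when libraries were left out in turn. CDC6 had the smallest p of the members in that comparison, which favours a stable value, so this range tests nothing. In the NOTCH1 knockdown the log2 fold change of CDC6 was -0.06 (95% interval -0.40 to 0.27).

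The 6 subunits of the origin recognition complex had a median log2 fold change of -0.10 in the NOTCH1 knockdown and -0.23 in the RBPJ knockdown. Of these subunits 5 of 6 and 6 of 6 lay below 0, beside 48.9% and 50.3% of all genes. Those signs held under both other scalings of the libraries. ORC5 had 119 and 151 in the NOTCH1 knockdown and 124 and 128 in the RBPJ knockdown, against 154 and 161 in the control. ORC6, the subunit least tightly bound to the complex in human cells, had 381 and 353 in the NOTCH1 knockdown and 339 and 355 in the RBPJ knockdown, against 386 and 409 in control embryos. For both genes each knockdown library stood below both control libraries, by small margins. ORC2 and ORC4, which hold the core of the complex together with ORC3 and ORC5, were spread more widely within groups. ORC2 had 171 and 146 in the NOTCH1 knockdown, 146 and 110 in the RBPJ knockdown, and 194 and 135 in the control, so that all groups overlapped the control. ORC4 had 161 and 132 in NOTCH1 knockdown libraries, 157 and 142 in RBPJ knockdown libraries, and 211 and 153 in control libraries. The median of the complex in the RBPJ knockdown moved to -0.07 without replicate 1 of the control. In the NOTCH1 knockdown it moved to 0.01, with 3 of 6 below 0, without replicate 2 of that knockdown. CDT1, the partner of CDC6 in loading, and GMNN (geminin), which blocks CDT1 after S phase has begun, had log2 fold changes of -0.05 to 0.03 in both knockdowns, and GMNN kept between 691 and 727 in all 6 libraries.

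Among the helicase genes, most ring subunits had fold changes above 0 in the NOTCH1 knockdown and MCM10 had fold changes below 0 in both knockdowns, and none passed. For MCM2 to MCM7 the log2 fold change was above 0 in 5 of 6 genes in the NOTCH1 knockdown, with a median of 0.16, and in 4 of 6 in the RBPJ knockdown, with a median of 0.05. All genes were above 0 in 51.1% and 49.7% of cases. MCM2 had 4977 and 4947 in the NOTCH1 knockdown and 4530 and 4828 in the RBPJ knockdown, against 4141 and 4418 in the control. Both knockdowns lay above the control without overlap, and the NOTCH1 knockdown above the RBPJ knockdown (NOTCH1 knockdown over control, log2 fold change 0.21 ± 0.10 SE, limma adjusted p = 0.663). MCM7 had 4295 and 3764 in the NOTCH1 knockdown, 3810 and 3515 in the RBPJ knockdown, and 3532 and 3404 in the control, with a log2 fold change of 0.21 ± 0.10 SE in the NOTCH1 knockdown. Its higher replicate set much of that value, which was 0.12 without replicate 1 of the NOTCH1 knockdown. MCM4 and MCM5 likewise reached 2794 and 2711 in that library, against 2255 and 2385 in replicate 2 of the NOTCH1 knockdown and 2154 to 2357 in the control. Without replicate 1 of the NOTCH1 knockdown the median of the ring subunits in that knockdown was 0.03. Their median in the RBPJ knockdown was 0.02 without its replicate 1 and 0.10 without its replicate 2. MCM6 had log2 fold changes of -0.01 and -0.08 in the NOTCH1 and the RBPJ knockdown, and MCM3 had 0.07 in the NOTCH1 knockdown and -0.15 in the RBPJ knockdown.

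MCM10 is a scaffold that helps to activate the loaded helicase and to bring in polymerase alpha. Its values were 1207 and 1358 in the NOTCH1 knockdown and 1243 and 1155 in the RBPJ knockdown, against 1449 and 1504 in the control. Every knockdown library was lower than both controls. The log2 fold change was -0.21 ± 0.11 SE in the NOTCH1 knockdown (limma adjusted p = 0.754) and -0.30 ± 0.11 SE in the RBPJ knockdown (limma adjusted p = 0.983). The value of MCM10 in the NOTCH1 knockdown was -0.12 without its replicate 1. CDC7 is the kinase that fires origins, with DBF4 as its activating subunit. CDC7 had 364 and 385 in the NOTCH1 knockdown, 387 and 479 in the RBPJ knockdown and 450 and 433 in the control, so that only the NOTCH1 knockdown lay below the control without overlap (log2 fold change -0.24 ± 0.15 SE, limma adjusted p = 0.779). DBF4 ranged from 569 to 715 with all groups overlapping. CDC45 was among the most variable members within groups, with 387 and 245 in the NOTCH1 knockdown, 313 and 284 in the RBPJ knockdown, and 394 and 285 in the control. The GINS subunits had log2 fold changes of -0.09 to 0.07 in the NOTCH1 knockdown and -0.14 to 0.07 in the RBPJ knockdown. GINS1 had 3367 and 3177 in the NOTCH1 knockdown, 2778 and 2997 in the RBPJ knockdown and 3429 and 2962 in the control. GINS4, the member with the second lowest mean, had 73.6 and 91.5 in NOTCH1 knockdown libraries, 80.7 and 105 in RBPJ knockdown libraries, and 78.2 and 98.2 in control libraries.

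**Figure D3:**
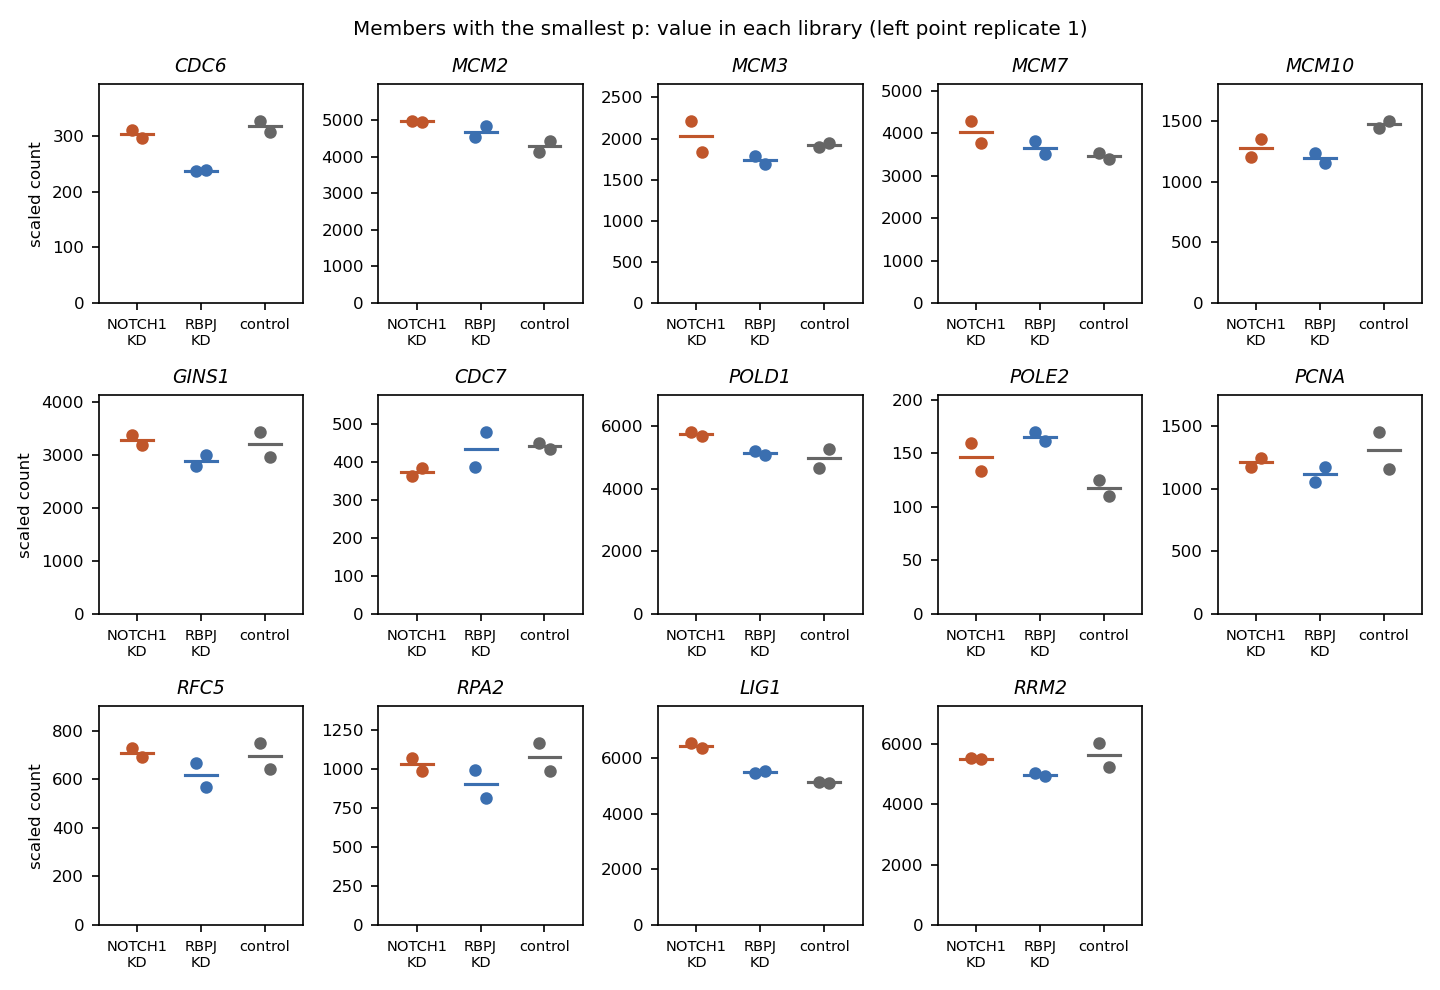
Scaled counts in each library for the 14 members that were among the 6 smallest p values in any of the 3 comparisons, with replicates as points and group means as lines, on axes that start at 0. LIG1 is highest in both NOTCH1 knockdown libraries, CDC6 is lowest in both RBPJ knockdown libraries, and MCM10 is highest in both control libraries.

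The replicative polymerases gave no call, and POLE2 had the highest fold change of the members in the RBPJ knockdown. POLE2, the second subunit of polymerase epsilon, which copies the leading strand, had 159 and 134 in the NOTCH1 knockdown and 170 and 161 in the RBPJ knockdown, against 125 and 110 in the control. All 4 knockdown libraries lay above both controls. The log2 fold change was 0.31 ± 0.21 SE in the NOTCH1 knockdown (limma adjusted p = 0.785) and 0.50 ± 0.21 SE in the RBPJ knockdown (95% interval 0.05 to 0.94, limma adjusted p = 0.983). POLE, the catalytic subunit, had 1352 and 1266 in the NOTCH1 knockdown and 1249 and 1214 in the RBPJ knockdown, against 1299 and 1239 in control embryos, with log2 fold changes of 0.04 and -0.04. The difference between the 2 subunits was not tested.

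Subunits of polymerase delta, which copies the lagging strand, had log2 fold changes above 0 in the NOTCH1 knockdown. POLD1, the catalytic subunit, had 5805 and 5662 in the NOTCH1 knockdown, 5188 and 5059 in the RBPJ knockdown, and 4668 and 5254 in the control. The NOTCH1 knockdown stood above both other groups without overlap (log2 fold change over the control 0.21 ± 0.10 SE, limma adjusted p = 0.686), and the RBPJ knockdown lay between the control libraries. Without replicate 1 of the control, the log2 fold change of POLD1 in the NOTCH1 knockdown was 0.13. POLD3 followed with 529 and 522 in the NOTCH1 knockdown, 460 and 454 in the RBPJ knockdown, and 493 and 420 in the control. For POLD2 the values were 587 and 584 in NOTCH1 knockdown libraries, 503 and 570 in RBPJ knockdown libraries, and 567 and 566 in control libraries. The 3 delta subunits thus each had both NOTCH1 knockdown libraries above both control libraries, as did 18.6% of all genes. Polymerase alpha with primase, which lays down the primers, had mixed signs. POLA1 and PRIM2 had log2 fold changes of 0.01 and -0.05 in the NOTCH1 knockdown and -0.11 and -0.15 in the RBPJ knockdown. POLA2 had 585 and 580 in the NOTCH1 knockdown and 547 and 578 in the RBPJ knockdown, against 533 and 543 in the control.

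LIG1, the ligase that seals Okazaki fragments on the lagging strand, had the smallest p of the members in the NOTCH1 knockdown. It had 6554 and 6355 in the NOTCH1 knockdown, 5458 and 5547 in the RBPJ knockdown, and 5152 and 5107 in the control. The 3 groups did not overlap, and the gaps between them were wider than those between replicates. LIG1 was 1.26-fold the control in the NOTCH1 knockdown (log2 fold change 0.33 ± 0.09 SE, 95% interval 0.13 to 0.53), with an unadjusted p of 0.00356 that did not pass after adjustment over all genes (limma adjusted p = 0.461). With the replicate number as a term in the model, LIG1 came nearer to the threshold but still did not pass (limma adjusted p = 0.0532). It was 1.07-fold the control in the RBPJ knockdown and 1.17-fold higher in the NOTCH1 than in the RBPJ knockdown (log2 fold change 0.23 ± 0.09 SE, limma adjusted p = 0.999). The log2 fold change in the NOTCH1 knockdown over the control kept between 0.31 and 0.35 when libraries were left out in turn. Picking LIG1 by its p favours a stable value, so this range tests nothing. FEN1, the nuclease that trims the same fragments before ligation, kept between 1568 and 1673 in all 6 libraries.

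PCNA, the sliding clamp that holds polymerases and LIG1 on DNA, had 1175 and 1243 in the NOTCH1 knockdown, 1053 and 1175 in the RBPJ knockdown, and 1452 and 1157 in the control. The control libraries lay further apart than those of either knockdown, and the log2 fold change in the RBPJ knockdown ran from -0.38 to -0.06 over omitted libraries around a value of -0.22 ± 0.13 SE (limma adjusted p = 0.983). Its loader, RFC1 to RFC5, had log2 fold changes of -0.10 to 0.18 in the NOTCH1 knockdown and -0.18 to 0.19 in the RBPJ knockdown. RFC5 had 728 and 690 in NOTCH1 knockdown libraries, 668 and 568 in RBPJ knockdown libraries, and 750 and 643 in control libraries. The 3 subunits of RPA, which coats single-stranded DNA, all had log2 fold changes below 0 in both knockdowns. All genes were below 0 in 48.9% and 50.3% of cases. The RPA values ran from -0.07 to -0.05 in the NOTCH1 knockdown and from -0.26 to -0.04 in the RBPJ knockdown. RPA2 had 1071 and 989 in the NOTCH1 knockdown, 996 and 813 in the RBPJ knockdown and 1168 and 990 in the control. The RBPJ knockdown and the control overlapped, and the log2 fold change of RPA2 between them was -0.11 without replicate 2 of the RBPJ knockdown and -0.14 without replicate 1 of the control.

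Enzymes that supply deoxynucleotides had positive log2 fold changes of the NOTCH1 over the RBPJ knockdown, from 0.13 to 0.15. All genes were above 0 there in 52.7% of cases. RRM2, the small subunit of ribonucleotide reductase, had 5512 and 5492 in the NOTCH1 knockdown, 5015 and 4934 in the RBPJ knockdown, and 6022 and 5215 in the control. Both RBPJ knockdown libraries lay below all others (log2 fold change over the control -0.17 ± 0.10 SE, limma adjusted p = 0.983). For RRM2 it was -0.07 without replicate 1 of the control and -0.28 without its replicate 2. RRM1, the large subunit, had 1200 and 1181 in the NOTCH1 knockdown, 1054 and 1107 in the RBPJ knockdown, and 1272 and 1037 in the control. TYMS, thymidylate synthase, had 1042 and 969 in the NOTCH1 knockdown, 975 and 865 in the RBPJ knockdown, and 1221 and 758 in the control, whose libraries enclosed all others. CHAF1A and CHAF1B, subunits of the chromatin assembly factor that deposits histones behind the fork, had log2 fold changes of 0.12 and 0.06 in the NOTCH1 knockdown and 0.11 and 0.04 in the RBPJ knockdown, with overlapping libraries. Of the proteins that steady the fork and signal its stalling, TIMELESS had 902 and 854 in the NOTCH1 knockdown and 891 and 869 in the RBPJ knockdown, against 950 and 913 in the control. Its partner TIPIN had 265 and 265 in the NOTCH1 knockdown and 238 and 246 in the RBPJ knockdown, against 328 and 259 in control embryos. WDHD1, which ties the helicase to polymerase alpha, had 337 and 280 in the NOTCH1 knockdown, 349 and 320 in the RBPJ knockdown and 392 and 341 in the control. CLSPN (claspin), which passes the stalling signal to the checkpoint kinase CHEK1, had log2 fold changes of 0.07 in the NOTCH1 knockdown and -0.02 in the RBPJ knockdown.

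Members were also counted by whether the libraries of 2 groups overlapped. In the NOTCH1 knockdown 10 members had both libraries above both controls and 6 had both below, which is 19.2% and 11.5% of the members beside 18.6% and 17.2% of all genes. In the RBPJ knockdown 6 were above and 11 below, which is 11.5% and 21.2% beside 15.3% and 16.8%. MCM2, POLA2, POLE2 and LIG1 were above the control in both knockdowns, and ORC5, ORC6, MCM10 and TIMELESS were below it in both, which is 7.69% of the members each way beside 7.98% and 7.93% of all genes. The 2 comparisons share the control libraries. Opposite orders in the 2 knockdowns were found for 0 members, beside 0.870% of all genes with the NOTCH1 knockdown above and the RBPJ knockdown below the control, and 0.713% the other way round. The median log2 fold change of the members was 0.01 in the NOTCH1 knockdown, the same as the 0.01 of all genes, and -0.05 in the RBPJ knockdown, beside 0.00 for all genes to 2 decimals. The choice of control library moved these medians. In the NOTCH1 knockdown the median was 0.08 without replicate 1 of the control and -0.06 without its replicate 2. In the RBPJ knockdown it was -0.01 without replicate 1 of the control and -0.13 without its replicate 2.

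Set directly against each other, the knockdowns differed in the same direction for most members, by small amounts. The NOTCH1 knockdown had the higher fitted value for 40 of 52 members, or 76.9%, beside 52.7% of all genes, with a median log2 fold change of 0.08 over the RBPJ knockdown beside 0.01. Both NOTCH1 knockdown libraries were above both RBPJ knockdown libraries for 16 members, 30.8% beside 17.5% of all genes, and below them for 3 members, CDC7, PRIM1 and POLE2, 5.77% beside 15.5%. The 16 included MCM2, MCM3, GINS1, POLD1 to POLD3, LIG1, CDC6, RRM1 and RRM2. All 6 ring subunits and all 3 nucleotide enzymes were on the NOTCH1 side, with medians of 0.11 and 0.14. MCM3 had 2214 and 1839 in the NOTCH1 knockdown, against 1783 and 1689 in the RBPJ knockdown (log2 fold change 0.22 ± 0.12 SE, limma adjusted p = 0.999). For MCM3 this value was 0.08 without replicate 1 of the NOTCH1 knockdown and 0.35 without its replicate 2. With replicate 1 of the NOTCH1 knockdown omitted the median was 0.05 and 34 members were on the NOTCH1 side. With its replicate 2 omitted the median was 0.13 and 42 members were on that side. The members are not independent of one another, so these counts describe the libraries and test nothing.

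**Figure D4:**
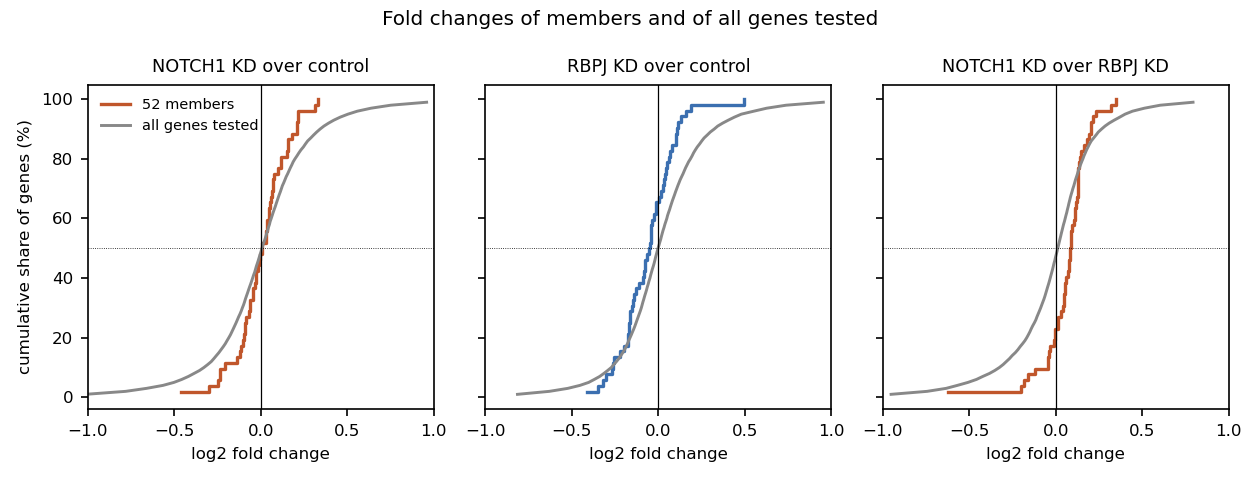
Cumulative share of genes (vertical axis, percent) against log2 fold change (horizontal axis) for the 52 members (coloured steps) and all 12070 genes tested (grey line) in the NOTCH1 knockdown over the control, the RBPJ knockdown over the control and the NOTCH1 over the RBPJ knockdown. The grey line runs from the 1st to the 99th percentile. The members spread less than all genes in each panel, and their medians lie at 0.01, -0.05 and 0.08 from left to right.

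The median absolute log2 difference between replicates 1 and 2 over the members was 0.10 in the NOTCH1 knockdown, 0.10 in the RBPJ knockdown and 0.20 in the control, where genes with a mean of at least 100 had 0.14, 0.14 and 0.18. Replicate 1 was higher for 38 of 52 members in the NOTCH1 knockdown, for 26 in the RBPJ knockdown and for 37 in the control, beside 51.9%, 49.3% and 50.0% of all genes. The largest replicate gaps were those of CDC45 in the NOTCH1 knockdown, with a log2 difference of 0.66, and of RFC4 in the RBPJ knockdown, with 223 and 312. In the control it was that of PRIM1. Summed over the 52 members the scaled counts were 68047 and 64878 in the NOTCH1 knockdown, 61647 and 61423 in the RBPJ knockdown, and 64320 and 60891 in the control. The RBPJ knockdown sums lay within the range of the control, and both NOTCH1 knockdown sums lay above it. As a share of each library's total, the NOTCH1 knockdown had 0.629% and 0.613% against 0.621% and 0.581% in the control, which overlap.

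Other genes of the pathway gave no calls either. Of 79 further genes for origin firing, the E2F and RB regulators, fork processing, nucleotide metabolism, chromatin assembly and the S phase checkpoint, 79 were tested and 0 passed in each of the 3 comparisons (limma). At an unadjusted p below 0.05 limma gave 4, 2 and 0 of them in the NOTCH1 knockdown, the RBPJ knockdown and the direct comparison, or 5.06%, 2.53% and 0% beside 7.29%, 4.34% and 3.64% of all genes. Their median log2 fold change was -0.02 in the NOTCH1 knockdown and -0.06 in the RBPJ knockdown.

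The 14 further origin firing and licensing factors had 11 fold changes below 0 in the NOTCH1 knockdown, beside 48.9% of all genes, and 10 in the RBPJ knockdown, beside 50.3%. TICRR (treslin) and its partner MTBP bring CDC45 to the loaded helicase. TICRR had 776 and 786 in the NOTCH1 knockdown and 725 and 664 in the RBPJ knockdown, against 618 and 649 in the control. MTBP had 249 and 276 in the NOTCH1 knockdown and 284 and 277 in the RBPJ knockdown, against 322 and 335 in control embryos. All knockdown libraries lay on 1 side of both controls for each gene, with log2 fold changes of 0.30 and -0.32 in the NOTCH1 knockdown (limma adjusted p = 0.631 and 0.703). CCNE2, a cyclin that drives entry into S phase, had 227 and 195 in the NOTCH1 knockdown, 202 and 144 in the RBPJ knockdown, and 232 and 218 in the control. Its kinase CDK2 had 548 and 580 in NOTCH1 knockdown libraries, 545 and 464 in RBPJ knockdown libraries, and 611 and 611 in control libraries. Both RBPJ knockdown libraries lay below both controls for each, with log2 fold changes of -0.40 and -0.28.

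E2F factors activate many replication genes at the start of S phase, and RB proteins hold them back. Of the 13 members of these families 7 were above 0 in the NOTCH1 knockdown, beside 51.1% of all genes, and 5 in the RBPJ knockdown, beside 49.7%. E2F1 had 497 and 650 in the NOTCH1 knockdown, 537 and 519 in the RBPJ knockdown, and 571 and 738 in the control. TFDP1, the dimer partner of E2F proteins, had 414 and 444 in NOTCH1 knockdown libraries, 462 and 396 in RBPJ knockdown libraries, and 339 and 388 in control libraries, with log2 fold changes of 0.24 in both knockdowns. RB1, a low transcript here, had 15.3 and 19.4 in NOTCH1 knockdown libraries, 21.5 and 15.4 in RBPJ knockdown libraries, and 32.7 and 24.0 in control libraries. The RB relatives RBL1 and RBL2 had log2 fold changes of 0.21 and 0.24 for the NOTCH1 over the RBPJ knockdown.

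In nucleotide metabolism GART, an enzyme of purine synthesis, had 1657 and 1729 in the NOTCH1 knockdown and 1612 and 1702 in the RBPJ knockdown, against 2223 and 1927 in the control. It was below both controls in all 4 knockdown libraries, with log2 fold changes of -0.29 and -0.32 (limma adjusted p = 0.606 and 0.983). SAMHD1, which breaks down deoxynucleotides, had 507 and 414 in the NOTCH1 knockdown and 447 and 314 in the RBPJ knockdown, against 324 and 302 in the control, so that only the NOTCH1 knockdown was clear of the control. RRM2B, the small subunit of ribonucleotide reductase that is induced by p53, was low, with 18.4 and 8.62 in the NOTCH1 knockdown and 20.0 and 15.4 in the RBPJ knockdown, against 7.40 and 5.45 in the control. DUT, which destroys dUTP, had 312 and 251 in the NOTCH1 knockdown, against 227 and 217 in the RBPJ knockdown.

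At the fork, POLE4, a small histone-fold subunit of polymerase epsilon, had 827 and 659 in the NOTCH1 knockdown, 954 and 807 in the RBPJ knockdown, and 972 and 955 in the control (NOTCH1 knockdown over control, log2 fold change -0.38 ± 0.14 SE, limma adjusted p = 0.569). POLD4, a small subunit of polymerase delta, had 42.8 and 30.3 in NOTCH1 knockdown libraries, 27.7 and 22.6 in RBPJ knockdown libraries, and 27.6 and 19.5 in control libraries. TOP2A, a topoisomerase that untangles replicated DNA, had 2926 and 2617 in NOTCH1 knockdown libraries, 2657 and 2374 in RBPJ knockdown libraries, and 3488 and 2481 in control libraries, with wide overlap. TOP1, which relieves the twist ahead of the fork, had 1233 and 1357 in the NOTCH1 knockdown against 1457 and 1505 in the RBPJ knockdown. ESCO1, which acetylates cohesin, had log2 fold changes of -0.28 in the NOTCH1 knockdown and -0.34 in the RBPJ knockdown. The histone chaperones ANP32E and ASF1A had log2 fold changes of -0.21 and -0.12 in the NOTCH1 knockdown and -0.17 and -0.32 in the RBPJ knockdown. For SSRP1, a subunit of the FACT chaperone, they were 0.13 and 0.03, for NASP 0.15 and -0.03, and for RBBP4, a partner of CHAF1A, -0.14 and -0.18. In the checkpoint, CHEK1 had 1186 and 1366 in the NOTCH1 knockdown and 1316 and 1320 in the RBPJ knockdown, against 1502 and 1437 in the control, lower in all 4 knockdown libraries. ATRIP, the partner of the kinase ATR, had 203 and 192 in the NOTCH1 knockdown and 184 and 195 in the RBPJ knockdown, against 249 and 238 in control embryos. RAD17, which loads the checkpoint clamp, had 300 and 236 in the NOTCH1 knockdown and 244 and 227 in the RBPJ knockdown, against 296 and 314 in control embryos. ATR itself had 287 and 297 in the NOTCH1 knockdown and 311 and 330 in the RBPJ knockdown, against 327 and 383 in control embryos, and WEE1, a kinase that restrains CDK1, had a log2 fold change of 0.27 for the NOTCH1 over the RBPJ knockdown. Of the 10 checkpoint genes, 7 had fold changes below 0 in the NOTCH1 knockdown, with a median of -0.10, and 9 in the RBPJ knockdown, with a median of -0.12. All genes were below 0 in 48.9% and 50.3% of cases, and none of the 10 passed.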

How the data were processed

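Polyadenylated RNA of 6 embryo pools was sequenced, with GFP and RFP messenger RNA added before extraction, per the labels' protocols. The submitters' processing notes name DESeq2, Salmon 0.14.1 and ARS-UCD1.2 as tools and build, without saying which made what. Annotation and filters: not given in the sources used here. The deposited signal values look like read counts divided by 1 scaling factor per library, as judged from the values. Of the low values 75.7% to 79.4% lay within 0.1 of a whole multiple of the library's step. Whole reads were therefore not taken as recovered, and no count model was fitted. Totals divided by the steps gave the approximate depths. Rows with no gene name, 2551 of 17922 and 6.20% to 7.22% of the totals, were not used. Where a symbol was repeated (57 symbols), the row with the higher mean was kept. Spike-in rows were not used, so RNA per embryo was not analysed.

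Values were tested as log2(value + 1), with no further scaling, for the 12070 gene symbols whose mean reached 10, using limma 3.58.1 in R 4.3.3. For genes with low values this scale shrinks the fold change. The model had 1 mean per group over 6 libraries, 3 residual degrees of freedom and variances moderated along a trend, with Benjamini-Hochberg adjustment over all genes. An exact permutation test of 2 against 2 libraries cannot go below a two-sided p of 0.333, so none was run. The labels do not state that the 2 pools of a group are separate collections, and the p-values reflect only how far these pools differed, technical variation included. The members and lists were chosen with earlier results of these data known. Every member may be named. Values per library are given at least for the 6 members with the smallest p in each comparison and those with the 3 lowest and 3 highest means, and of each further list the 2 genes with the smallest p in each comparison are given. Promoter motifs were not searched. Other settings tried were added constants of 0.1 and 10, all named genes, genes with a mean of 100 or more, both other scalings (median of ratios, quantile), fits on the compared groups alone, untrended or robust variances, thresholds of 0.01 and 0.1, a replicate term, and each library omitted. Names are those in the deposited table. Plots were made in Python 3.11.15 with matplotlib 3.10.9.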

Additional observations from a re-analysis of the deposited data

How the results depend on the processing

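The count of replication genes that passed was 0 in all 3 comparisons under every alternative that was run. Over all genes, the replicate block (the replicate number as a term in the limma model) moved the count of calls to 138 in the NOTCH1 knockdown, 12 in the RBPJ knockdown and 15 between the knockdowns. LIG1 came nearest to the threshold there, with an adjusted p of 0.0532 in the NOTCH1 knockdown. With that term limma gave 4, 4 and 3 members an unadjusted p below 0.05 in the 3 comparisons, against 2, 3 and 2 without it. In the RBPJ knockdown MCM10 then had the smallest limma adjusted p of the members, 0.364. Labels do not say what the replicate number marks. Deviations of same-numbered libraries from their group means correlated across the 12070 genes, which are not independent replicates, at r = 0.17 to 0.21, and across the 52 members at 0.28 to 0.49. Without the variance trend the calls over all genes were 0 for the RBPJ knockdown and 0 between the knockdowns. With libraries left out in turn they ran from 0 to 1, from 1 to 3 and from 0 to 3, the highest without replicate 2 of the control in both comparisons with it and without replicate 1 of the RBPJ knockdown between the knockdowns. The members' median log2 fold change then ran from -0.055 to 0.080 in the NOTCH1 knockdown, from -0.13 to -0.013 in the RBPJ knockdown and from 0.05 to 0.13 between the knockdowns. Under quantile normalization the median in the NOTCH1 knockdown was -0.02, with 25 of 52 members above 0. The causes of these moves were not tested. All 18 fold changes of the members with the smallest p kept their sign under every alternative. These members were picked by their p in the same data, which favours a stable sign, so this count tests nothing. Members with an unadjusted p below 0.05 numbered 1 to 3 in the NOTCH1 knockdown over omitted libraries, with 1 without its replicate 1 or without either RBPJ knockdown library. In the RBPJ knockdown they numbered 0 without its replicate 2 and 8 without replicate 2 of the control. Between the knockdowns they numbered 0 without replicate 1 of the NOTCH1 knockdown or without either RBPJ knockdown library. Each group had 2 libraries.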
